A study of Mus musculus with 2 samples.

Results

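Complement and acute phase genes were examined in the liver of mouse embryos at E12.5, on 1 array of mesothelial cells and 1 array of liver cells. The genes were Crp, Apcs, Orm1, Slpi, Masp1, C2, Cfb, Hc and Cfi, 9 of the 18193 genes with a value on both arrays. They were chosen by symbol, with earlier results of these data known. Every probe set whose platform annotation names exactly 1 of these symbols was taken, which gave 15 of 34945 such probe sets. Both arrays were of wild type C57Bl6 embryos, and no treatment is given for either. The mesothelial cells, the epithelium that covers the liver, had been dissociated with trypsin-EDTA and sorted by FACS on the surface protein podoplanin (Pdpn). The liver cells are described by tissue and age only, and nothing in the labels tells whether Pdpn+ cells were depleted from them, how many embryos went into either sample or whether embryos were pooled. One free-text label speaks of embryos at a far earlier stage, and the age field was followed. With 1 array in each group no difference could be tested, and every value below describes these 2 arrays only.

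Complement is a cascade of plasma proteases that marks and lyses microbes. It starts through the classical, lectin or alternative pathway, and these routes meet at the cleavage of C3 and then of C5. Acute phase proteins are plasma proteins whose synthesis in hepatocytes changes in inflammation, chiefly under interleukin 6 and interleukin 1. In the adult, hepatocytes are the main source of most proteins in both groups, and macrophages and epithelia make some of them.

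The labels were first checked against the gene used for the sort and against markers. Pdpn, on which the cells were sorted, was 38.8-fold brighter on the mesothelial array. Of 16 mesothelial markers, Pdpn included, 15 were at least 2-fold brighter on the mesothelial array, against 36.2% of all genes. The median probe set read 65.8 on the mesothelial array and 42.3 on the liver array, and the brightest of 27 probe sets for bacterial transcripts read 16.2 and 10.5, here called control level. A difference means the log2 intensity on the mesothelial array less the log2 intensity on the liver array, and the median difference over all genes was 0.66. Rescaling the arrays in the ways described in the closing section took between 0.019 and 1.08 off every difference where it shifted all genes alike. The smaller positive differences given below therefore turned sign under some of the 7 scalings.

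Of the 9 genes, 6 were at least 2-fold brighter on the mesothelial array and 0 at least 2-fold brighter on the liver array. Over all genes those shares were 36.2% and 4.16%. Crp, Hc and Slpi were at least 4-fold brighter on the mesothelial array, where 11.4% of all genes were. Masp1, C2 and Cfi lay between 2-fold and 4-fold, Cfb and Apcs below 2-fold, and Orm1 was at control level on both arrays. The median difference of the 9 genes was 1.72, or 1.06 relative to all genes. After each array was centred on its median, 5 of the 9 genes remained at least 2-fold brighter on the mesothelial array, Cfi no longer being among them, against 17.6% of all genes. By probe sets, 11 of the 15 were at least 2-fold brighter on the mesothelial array, against 32.2% of all probe sets with 1 symbol, and 8 of the 15 after centring, against 14.8%. None of the 15 was at least 2-fold brighter on the liver array, against 3.96% of all. Since each array holds a mixture of cells, more cells of a type and more RNA per cell cannot be told apart. Dissociation and sorting are described for the mesothelial cells only, so handling and cell type cannot be told apart either.

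**Figure D1:**
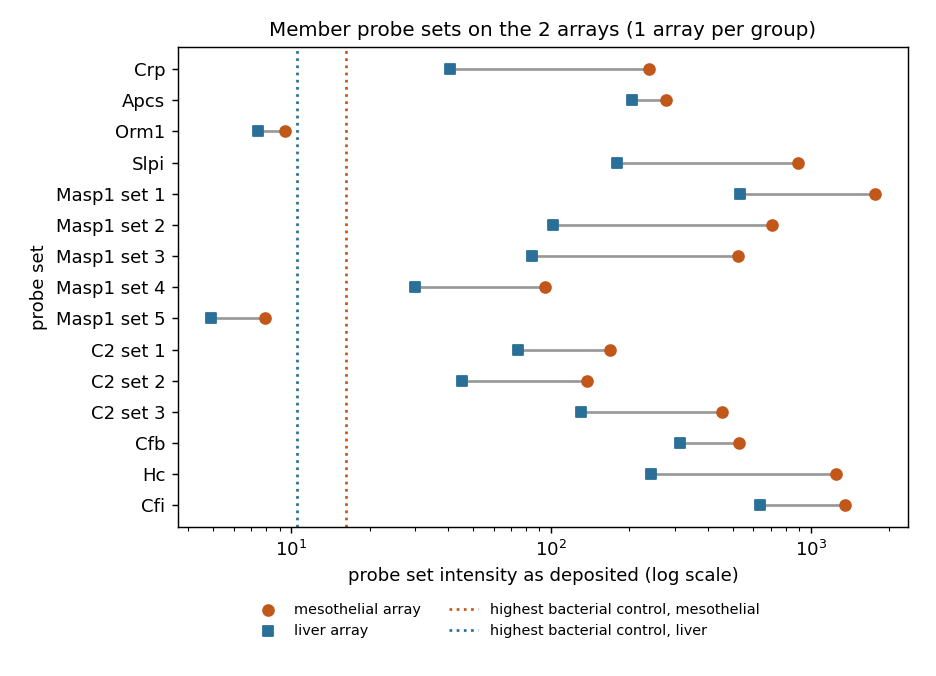
Intensity of each of the 15 probe sets on the mesothelial array (circles) and the liver array (squares), on a log scale, with the highest bacterial control of each array as a dotted line. Probe sets of Masp1 and C2 are numbered in the order of their platform names; all 15 pairs have the mesothelial value on the right, and the pairs of Orm1 and the fifth Masp1 probe set lie at control level.

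The sequences just upstream of the annotated start are shown for Crp, Slpi, Hc and Apcs. By brightest probe set, Crp, Hc and Slpi had the widest differences of the 9 genes, and Apcs, the neighbour of Crp, a small one. The sequences were taken from a set of RefSeq promoters on GRCm38.p6, in which only these 4 of the 9 genes were matched. Each is the 250 bases before the start, 5′ to 3′ on the gene's strand. The Crp window lies at chr1:172697806-172698055 on the plus strand, Apcs at chr1:172895055-172895304 on the minus strand, Slpi at chr2:164356508-164356757 on the minus strand and Hc at chr2:35061413-35061662 on the minus strand. Capitals mark letters that match one of 4 motifs, searched on both strands: TTCNNNGAA, which STAT proteins bind, TTNNGNAA, a loose form of the C/EBP motif, GTTAAT, a core part of the HNF1 motif, and TATAAA, the TATA box.
Crp: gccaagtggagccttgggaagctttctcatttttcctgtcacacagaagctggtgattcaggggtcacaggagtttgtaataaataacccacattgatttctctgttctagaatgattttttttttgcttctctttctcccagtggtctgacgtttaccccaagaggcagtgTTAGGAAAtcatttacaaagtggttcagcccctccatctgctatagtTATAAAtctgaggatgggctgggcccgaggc
Apcs: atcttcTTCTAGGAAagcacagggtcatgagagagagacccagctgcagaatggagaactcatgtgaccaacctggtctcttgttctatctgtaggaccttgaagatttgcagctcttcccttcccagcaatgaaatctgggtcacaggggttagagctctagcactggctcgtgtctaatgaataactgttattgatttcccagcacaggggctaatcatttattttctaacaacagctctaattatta
Slpi: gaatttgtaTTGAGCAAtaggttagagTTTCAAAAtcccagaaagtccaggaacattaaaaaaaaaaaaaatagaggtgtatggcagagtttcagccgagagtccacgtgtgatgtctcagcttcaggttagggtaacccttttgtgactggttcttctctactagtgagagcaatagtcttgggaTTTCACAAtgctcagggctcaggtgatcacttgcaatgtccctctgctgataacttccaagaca
Hc: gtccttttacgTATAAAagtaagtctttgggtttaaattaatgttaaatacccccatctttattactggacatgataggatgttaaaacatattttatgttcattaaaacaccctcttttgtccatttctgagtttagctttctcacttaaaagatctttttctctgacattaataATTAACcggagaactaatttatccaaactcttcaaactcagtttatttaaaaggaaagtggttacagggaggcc
In Crp the capitals are a C/EBP match at -78 to -71 and a TATA box at -31 to -26, counted from the base before the start as -1. Apcs holds 1 STAT match at -244 to -236, Slpi holds 3 C/EBP matches, the nearest at -64 to -57, and Hc an HNF1 core match at -74 to -69 and a TATA box match at -239 to -234. Over all 32851 windows of this length, 7.02% held the STAT motif, 36.9% the C/EBP motif, 6.43% the HNF1 core and 12.4% the TATA box. None of the motifs found overlapped another. These matches describe letters only.

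The pentraxin genes Crp and Apcs encode ring-shaped plasma proteins that bind damaged membranes and microbes and can recruit C1q. In the mouse, serum amyloid P, the product of Apcs, is the pentraxin that responds strongly in the acute phase, while C-reactive protein responds weakly. Crp read 237.4 on the mesothelial array and 40.9 on the liver array, 5.80-fold brighter on the mesothelial array, a difference of 2.54. Apcs read 277.3 and 205.2, 1.35-fold, a difference of 0.43. The RefSeq annotation lists no protein-coding gene between the 2 genes on chromosome 1, and the difference of Crp exceeded that of Apcs by 2.10, and by 2.21 after quantile normalization. Each of the 2 genes has 1 probe set, so no spread can be given for them. Over 5323 genes with several probe sets at or above the median of an array, the pooled SD of the differences was 0.70. That SD is a spread between probe sets of a gene, not between replicates. Taking the brightest probe set of each of the 9 genes, Crp had the widest difference and Apcs the smallest above control level. The sign of Apcs turned under 4 of the 7 scalings, whereas Crp stayed between 1.46 and 2.54.

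Orm1 encodes orosomucoid, or alpha-1-acid glycoprotein, an acute phase protein that binds lipophilic compounds. It read 9.4 on the mesothelial array and 7.4 on the liver array, below control level on both, so no fold is given. The related genes Orm2 and Orm3, which were picked out after their values were seen, were likewise at control level on both arrays, at 5.3 and 4.8 for Orm2 and 5.7 and 5.5 for Orm3. Orosomucoid RNA was not detectable above the controls on either array. Copies of this family are alike in sequence and could share probes.

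Slpi encodes the secretory leukocyte protease inhibitor, a small protein of epithelial surfaces that blocks neutrophil elastase and cathepsin G. It read 890.0 on the mesothelial array and 179.3 on the liver array, 4.96-fold brighter on the mesothelial array, a difference of 2.31. Under the 7 scalings the difference ran from 1.24 to 2.31 and stayed above 2-fold. Of its target protease genes, the cathepsin G gene Ctsg read 267.1 and 102.8, and the elastase gene Elane, which lay under the median of both arrays and was named after its values were seen, read 48.6 and 21.5. Most neutrophil genes were brighter on the liver array instead. Of 11 neutrophil markers, 7 were at least 2-fold brighter there and 2, Ctsg and Elane, on the mesothelial array. Over all genes those shares were 4.16% and 36.2%. After median centring the counts were 7 and 0, against 17.6% of all genes on the mesothelial array. Mpo and Prtn3, named after their values were seen, were also brighter on the mesothelial array as deposited, by less than 2-fold. The summed intensity was 3477 on the mesothelial and 7302 on the liver array, and Ngp was at control level in mesothelial cells.

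Masp1 encodes serine proteases of the lectin pathway that circulate bound to mannose-binding lectin, ficolins and collectins, and it was covered by 5 probe sets. The brightest probe set read 1760 on the mesothelial array and 532.5 on the liver array, 3.30-fold, a difference of 1.72. The second and the third read 708.9 against 101.9 and 524.5 against 84.5, 6.96-fold and 6.21-fold, and the fourth read 94.4 against 29.9, 3.16-fold. All 4 were brighter on the mesothelial array by 1.66 to 2.80, with an SD of 0.60 between them. The fifth probe set, at 7.9 and 4.9, was at control level on both arrays. Masp1 gives rise to several transcripts, and the files do not say which of them each probe set reads. Probe sets 2, 3 and 4 carry name endings that mark possible cross-hybridisation.

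C2 and Cfb encode related serine proteases that form the C3 convertases, C2 with C4b in the classical and lectin pathways and factor B with C3b in the alternative pathway. C2 had 3 probe sets, which read 168.9 against 74.3, 137.1 against 45.2 and 455.4 against 130.3. These were 2.27-fold, 3.03-fold and 3.50-fold brighter on the mesothelial array, with an SD of 0.32 between the differences. Cfb read 530.4 and 313.3, 1.69-fold, a difference of 0.76 whose sign turned under 3 of the 7 scalings. The annotation lists no protein-coding gene between C2 and Cfb on chromosome 17, and the difference of C2, taken from its brightest probe set, exceeded that of Cfb by 1.05. That probe set and the second are of the kind that can cross-hybridise. The first, which is not, differed by 1.18.

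Hc encodes complement component C5, whose cleavage yields the inflammatory peptide C5a and starts the membrane attack complex. It read 1254 on the mesothelial array and 241.8 on the liver array, 5.19-fold brighter on the mesothelial array, a difference of 2.37 that ran from 1.30 to 2.37 over the scalings. Cfi encodes factor I, the plasma protease that inactivates C3b and C4b. It read 1354 and 635.0, 2.13-fold, just past the 2-fold line. Its difference of 1.09 fell to 0.46 after median centring and was 0.017 at its lowest, without a turn of sign.

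**Figure D2:**
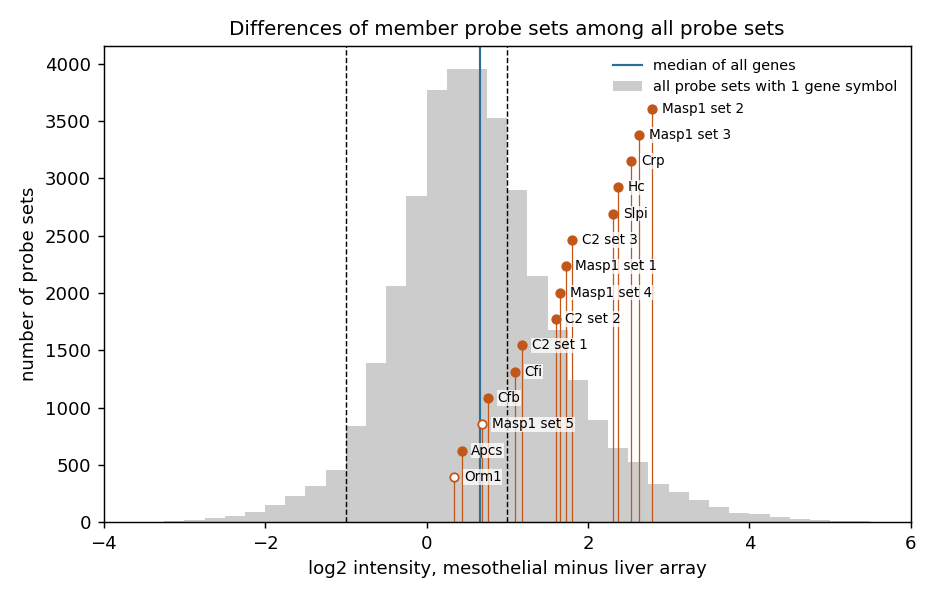
Difference of each of the 15 probe sets (log2 intensity, mesothelial minus liver; open circles at control level on both arrays) over a histogram of all 34945 probe sets with 1 gene symbol, with dashed lines at 2-fold and a solid line at the median of all genes, 0.66. The heights of the circles only separate the labels; 11 probe sets lie to the right of the upper dashed line and 0 to the left of the lower one.

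The scalings kept the genes in groups. Crp, Hc and Slpi, 3 of the 9, were at least 2-fold brighter on the mesothelial array under all 7. Masp1 and C2 stayed positive, from 0.65 to 1.72 and from 0.73 to 1.81, and were below 2-fold in some. For 3 genes, Apcs, Cfb and Orm1, the sign turned.

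**Figure D3:**
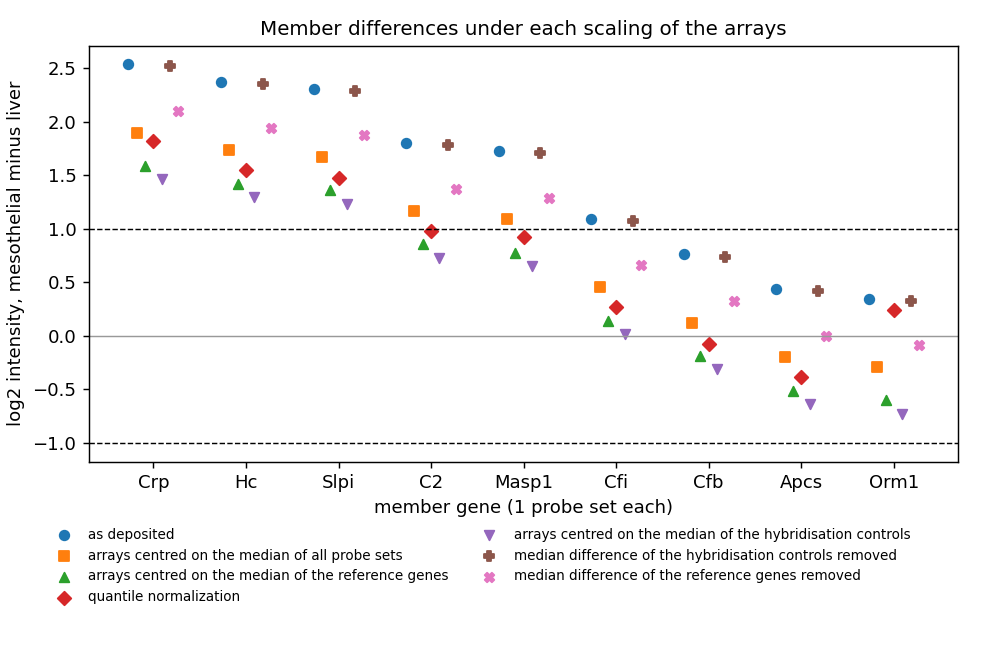
Difference of each gene (log2 intensity, mesothelial minus liver, from the probe set with the highest mean) under 7 scalings of the arrays, with dashed lines at 2-fold in either direction. The points of Crp, Hc and Slpi all lie above the upper dashed line, those of Cfi reach down to 0.017, and those of Cfb, Apcs and Orm1 lie on both sides of 0.

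Other genes of the complement system did not share one direction. Of 39 measured beside the 9 genes, 16 were at least 2-fold brighter on the mesothelial array and 2 on the liver array, and the median difference was 0.76, which is 0.091 above that of all genes. After median centring the counts were 9 and 9. Over all genes, 36.2% were at least 2-fold brighter on the mesothelial array and 4.16% on the liver array. After centring, 17.6% were so on the mesothelial array. The share of all genes on the liver array after centring was not computed, so centred liver counts cannot be set against it. The same shares belong beside the counts of the lists below.

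The classical and lectin pathway genes spread from -2.14 to 4.45. Among 13 classical and lectin pathway genes, 8 were at least 2-fold brighter on the mesothelial array and 1 on the liver array, and 5 and 2 after median centring. The collectin genes Colec12, Colec10 and Colec11, which encode C-type lectins with collagen stalks, were at least 17.7-fold, 10.4-fold and 9.87-fold brighter on the mesothelial array. Colec12 was at control level in liver cells, and Colec11, which hepatic stellate cells also express, varied by an SD of 1.03 over 2 probe sets. Masp2, which encodes the protease that Masp1 activates, read 194.3 and 47.3, 4.11-fold. Its 2 probe sets had an SD of 0.78. Other recognition molecules, named after their values were seen, differed less: the ficolin gene Fcna was 2.99-fold brighter on the mesothelial array, while the mannose-binding lectin genes Mbl1 and Mbl2 read 138.3 against 79.5 and 11.7 against 19.7. The C1q chain genes C1qa, C1qb and C1qc, also named afterwards, are expressed by macrophages and stand in the macrophage list too. They were 2.14-fold, 3.96-fold and 2.11-fold brighter on the mesothelial array. The 3 probe sets of C1qb had an SD of 0.61. Fcnb, another ficolin gene, went the other way, at 16.4 against 72.4, 4.41-fold brighter on the liver array.

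Terminal and alternative pathway genes were closer to the bulk of genes. Of 6 measured, 2 were at least 2-fold brighter on the mesothelial array and 0 on the liver array, and 0 and 1 after median centring. C8b and C8a, which encode chains of C8 in the membrane attack complex, read 236.6 against 85.5 and 654.1 against 275.0. C6 read 63.2 against 90.2.

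Regulators held both wide and small differences. Of 12 measured, 4 were at least 2-fold brighter on the mesothelial array and 0 on the liver array, and 2 and 2 after median centring. Clusterin (Clu), which blocks assembly of the membrane attack complex, read 6400 against 1077, 5.94-fold, and Serping1, the C1 inhibitor gene, 809.0 against 175.1, 4.62-fold. Cd55, which encodes decay-accelerating factor, was 3.01-fold brighter, with SDs of 0.51 for Clu between 4 probe sets and 0.31 for Cd55 between 3. Cd46 read 32.1 against 61.8. Among 8 receptor genes, 2 were at least 2-fold brighter on the mesothelial array, the integrin genes Itgax and Itgb2, at 5.08-fold and 3.31-fold, and 1 on the liver array, C3ar1, at 2.22-fold. The receptor counts were 2 and 4 after median centring, and the median difference of the receptor list as deposited was -0.32. The 3 probe sets of C3ar1 had an SD of 0.55 about a median difference of -0.96, below 2-fold.

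By size of difference, the complement and acute phase genes closest to Crp were Clu, Itgax and Serping1, within 0.034, 0.19 and 0.33 of its 2.54. Those closest to Apcs were Cpn1, Cfp and Fgb, within 0.053, 0.054 and 0.060 of its 0.43. The likeness was taken over 45 candidate genes and only 2 arrays.

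Other acute phase genes lay about the median of all genes. Of 22 measured, 7 were at least 2-fold brighter on the mesothelial array and 1 on the liver array, against 36.2% and 4.16% of all genes. After median centring the counts were 3 and 4, against 17.6% of all genes on the mesothelial array. The centred share of all genes on the liver array was not computed. As deposited, the median difference was 0.45, which set against all genes comes to -0.22. Saa4, a serum amyloid A gene, read 163.2 against 50.6, 3.23-fold, and Itih4, which encodes a plasma protein of the inter-alpha-inhibitor family, 396.4 against 125.2, 3.17-fold. The 2 probe sets of Saa4 had an SD of 0.86 about a median of 1.08. Lcn2, which neutrophils also make, was 13.2-fold brighter on the liver array at 235.7 against 17.8, and the haemoglobin-binding haptoglobin gene Hp read 44.6 against 86.4. Genes of the inducible serum amyloids were dim on both arrays. Saa1, Saa2 and Saa3, named after their values were seen, read 38.5 against 12.4, 28.3 against 14.5 and 32.4 against 34.3. The 2 probe sets of Saa1 had an SD of 1.31 about a median difference of 0.71. Of 7 genes whose proteins fall in the acute phase, such as Alb and Ttr, 0 were at least 2-fold apart in either direction, with a median of 0.63.

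**Figure D4:**
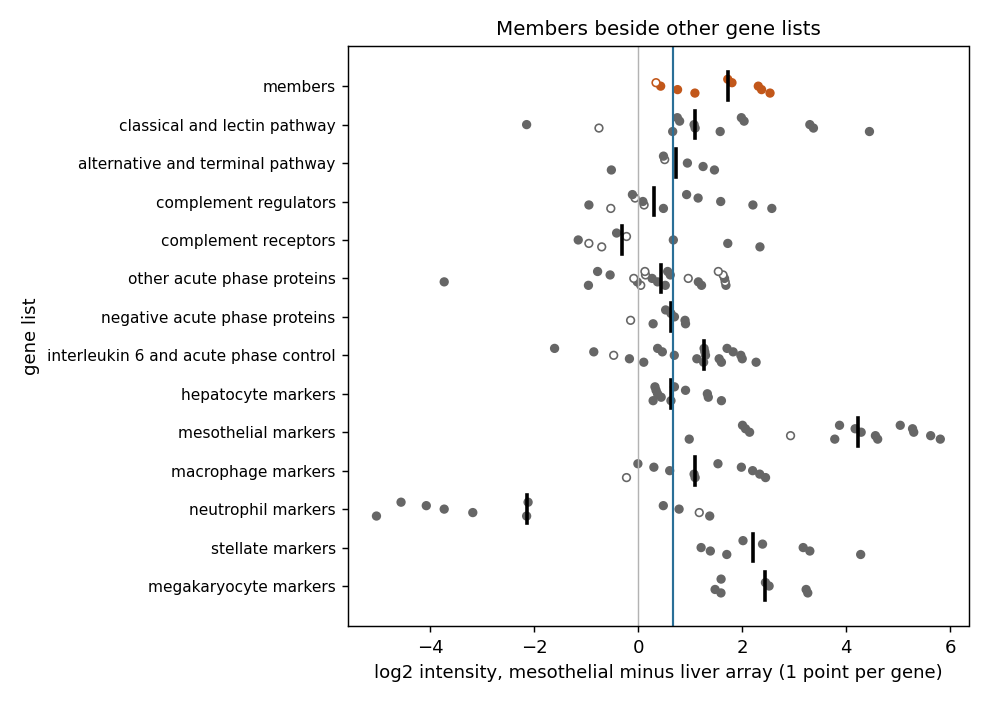
Difference of each gene (log2 intensity, mesothelial minus liver, 1 point per gene) by list, with the 9 genes in colour as members, filled points at or above the median of an array and open points below it. Thick bars are list medians and the vertical line is the median of all genes; the bar of the 9 genes stands at 1.72, that of hepatocyte markers at 0.63 and that of mesothelial markers at 4.23.

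Markers of several cell types also differed between the arrays. Of 11 hepatocyte markers, 3 were at least 2-fold brighter on the mesothelial array, and 0 once the arrays were centred, with differences from 0.29 to 1.60, a summed intensity of 93083 against 61965 and none at control level. For the 16 mesothelial markers, Pdpn included, the summed intensity was 35814 against 5728, and Muc16 and Msln were at control level in liver cells. Stellate markers were at least 2-fold brighter on the mesothelial array for 8 of 8, with sums of 5923 and 1115, and megakaryocyte markers for 7 of 7, with sums of 22860 and 6610. Macrophage markers were so for 7 of 11, with sums of 8440 and 2552 and Vsig4 at control level on both, and endothelial markers for 3 of 8, with sums of 2827 and 1437. Erythroid markers were at least 2-fold brighter on the liver array for 7 of 11, with sums of 23196 and 51449. After median centring the counts were 15 of 16 for mesothelial, 6 of 8 for stellate, 4 of 7 for megakaryocyte, 4 of 11 for macrophage and 1 of 8 for endothelial markers on the mesothelial array, and 9 of 11 for erythroid markers on the liver array. Over all genes, 36.2% were at least 2-fold brighter on the mesothelial array and 4.16% on the liver array. After centring, 17.6% were so on the mesothelial array. All these counts take the brightest probe set of each gene. By the median over probe sets, the stellate markers Reln, Lrat and Ngfr differed by 0.62, 0.51 and 0.82, below 2-fold. Their SDs were 1.98, 1.69 and 0.64. The other stellate markers stayed past 2-fold. The part of any of these cell types in the values of the 9 genes was not tested.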

How the data were processed

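RNA was hybridised to GeneChip Mouse Genome arrays after amplification of 20 ng total RNA with the Ovation systems, per the labels. The authors deposited 1 intensity for each probe set, and its range shows a linear scale rather than log2. RMA and Partek are named in the submitters' processing notes without version or role, and neither the scaling of the arrays nor the genome build is given in the sources used here. Before any difference, the log2 of each value was taken.

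Of 45101 probe sets, 64 were controls, which were left out of gene values, 932 had several symbols and 9160 others had none. Each gene was represented by its brightest probe set (mean log2 over both arrays), and the SD between probe sets is given for some genes with several. The text compares a gene with the median of its array, and uses a 2-fold line (1 on the log2 scale) and a 4-fold line as descriptions. Values at or below the highest bacterial control count as control level, and a fold against such a value is a bound, written as at least N-fold. The file has no detection flags, and the number of arrays limits the precision.

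The 9 genes and the lists were chosen with earlier results of these data known. All member probe sets are named, and in other lists up to 4 genes with the largest differences in each direction among those at or above the median of an array and the gene furthest the other way, with exceptions stated. Likeness is the absolute difference between log2 differences. Alternatives were other scalings, control level as a minimum, the median over probe sets, leaving out cross-hybridising probe sets, the array median as a filter and the 4-fold line. Centring on the hybridisation controls, and removing the median paired difference of those controls or of the reference genes, were added after seeing the data. Python 3.11.15 with pandas 2.3.3 was used, and the gene summary was tested on simulated data.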

Additional observations from a re-analysis of the deposited data

How the results depend on the processing

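The count of 11 probe sets at least 2-fold brighter in mesothelial cells became 5 with arrays centred on the reference genes, 6 by quantile normalization, 5 with centring on the hybridisation controls, 6 of 10 without cross-hybridising probe sets, which leaves fewer to count, and 5 at 4-fold. It was 8 with median centring, 9 with the median paired difference of the reference genes removed and 11 with that of the hybridisation controls removed. The share of all probe sets with 1 symbol was 32.2% as deposited and 14.8% after median centring. It was not computed for the other alternatives, so their counts cannot be set against it. The count of 0 for liver cells held under every alternative run. The median over the 9 genes, 1.72 as deposited, was 0.77 with the reference genes, 0.92 by quantile normalization and 0.65 with the hybridisation controls. The median of all genes, 0.66 as deposited, moved too, to -0.29, 0.078 and -0.41 under the same 3 scalings. The median of the other complement genes, 0.76, was -0.20, 0.031 and -0.32 under the same 3 scalings. That of the other acute phase genes, 0.45, was -0.50, -0.091 and -0.63, and -0.19 with median centring. Apcs differed by -0.20 with median centring, -0.52 with the reference genes, -0.39 by quantile normalization and -0.64 with the hybridisation controls. Orm1, at control level, differed by -0.29, -0.61 and -0.73 with the 3 centrings and by -0.088 when the median difference of the reference genes was removed. Cfb differed by -0.19 with the reference genes, -0.078 by quantile normalization and -0.32 with the hybridisation controls. Centring on the hybridisation controls takes the difference of per-array medians, a shift of 1.08, whereas their median paired difference was 0.019, and removing that left each of these signs as deposited. For the reference genes the shift was 0.95 and the median paired difference 0.43. Which scaling fits these arrays was not tested. No paired analysis was possible because each group has 1 array. Signal over background limits Orm1 and the fifth Masp1 probe set, and Crp and the fourth Masp1 probe set were below the array median in liver cells.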

Other observations

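Genes that carry or control the acute phase signal were mostly brighter on the mesothelial array as deposited, by their brightest probe sets. The 20 measured genes cover interleukin 6 signalling, other receptors such as those of interleukin 1, and transcription factors, among them hepatocyte factors such as Hnf4a. Of the 20, 12 were at least 2-fold brighter on the mesothelial array and 1 on the liver array. Over all genes those shares were 36.2% and 4.16%. Median centring gave 5 and 3, against 17.6% of all genes on the mesothelial array. The median difference was 1.26, where that of all genes was 0.66. The shared receptor chain gene Il6st read 795.5 against 165.0, 4.82-fold, the leukaemia inhibitory factor receptor gene Lifr 930.8 against 232.3, 4.01-fold, and the feedback inhibitor gene Socs3 858.1 against 218.2, 3.93-fold. Their SDs were 0.54 between 4 probe sets, 0.65 between 3 and 0.76 between 3. By the median over its 3 probe sets, Lifr differed by 0.88, below 2-fold. Il1rap, Jak1, Stat3 and Cebpb, named after their values were seen, likewise fell below 2-fold, at 0.54, 0.45, 0.61 and 0.71. The others of the 12 stayed past 2-fold. Il6ra, the specific interleukin 6 receptor chain, was named after its values were seen and read 108.3 against 121.5. Il6 itself, also named so, read 9.9 against 13.7, below control level in mesothelial cells. Osmr, the oncostatin M receptor gene, was at least 2.69-fold brighter on the liver array by its brightest probe set, although its 3 probe sets had a median difference of 0.054.

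Relatives of Crp and Slpi were also measured. Of 5 pentraxin relatives, 1 was above the median of an array. That gene, Ptx3, encodes a long pentraxin made by many cell types in inflammation and read 155.0 against 11.2, 13.8-fold brighter on the mesothelial array. Its 2 probe sets varied by an SD of 1.56 about a median of 2.69. Ptx4, Nptx2 and Mptx1 were at control level on both arrays. Of 10 genes that were Slpi relatives, neutrophil proteases or Grn, 5 were at least 2-fold brighter on the mesothelial array and 1 on the liver array. Over all genes those shares were 36.2% and 4.16%. After median centring the counts were 3 and 1. Grn, which encodes the precursor of the granulins and is a protein that Slpi shields from elastase, read 782.5 against 142.8, 5.48-fold. Its 3 probe sets had an SD of 0.38. Wfdc2, of the same domain family as Slpi, read 80.5 against 15.6, 5.16-fold, and Wfdc3 was 2.97-fold brighter on the liver array by the brighter of its 2 probe sets, whose median difference was -0.51.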
